A study of Mus musculus with 6 samples.

Results

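The genes described here were 9 transcription factors and regulators of the circadian clock (Arntl, Npas2, Per1, Per2, Per3, Cry1, Nr1d1, Nr1d2 and Dbp) and Ccrn4l, which encodes nocturnin, 10 of the 17460 genes listed with a value in mouse liver. They were picked by symbol at a time when their values in the control and knockout livers were already known, so the difference between the groups is given for them as a description, and calls by any tool among them are not read as support. RNA was sequenced from whole livers of C57BL/6 mice, 9 months old, after 24 weeks on a diet rich in fructose, trans fat and cholesterol that causes non-alcoholic steatohepatitis (NASH). The groups were control (n = 3) and Blnc1 LKO (n = 3). Blnc1 is a long noncoding RNA, and LKO (liver-specific knockout) mice carried a transgene for constitutive Cas9 and received, through the tail vein, an adenovirus with 2 guide RNAs against Blnc1. By the study's account this vector reaches hepatocytes and transduces other liver cells poorly, so the livers keep cells in which Blnc1 is intact. In the study's cohort on a high-fat diet, control mice were Cas9 transgenic animals given a GFP adenovirus, and the vector of the NASH controls is not given in the sources used here. The mice lived in equal light and dark periods, and neither the hour at which livers were collected nor the feeding state is given in the sources used here. Blnc1 itself was not analysed here, so the knockout was not checked in these livers.

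The mammalian clock is a feedback loop of transcription. BMAL1 (the product of Arntl) pairs with CLOCK or its relative NPAS2, binds E-box elements and switches on the Per and Cry genes, whose proteins return to the nucleus and block that pair. The same pair switches on Nr1d1 and Nr1d2, which encode the repressors REV-ERBα and REV-ERBβ, and these in turn hold Arntl, Npas2 and Cry1 down through elements shared with the activating ROR receptors. DBP is an output activator that binds D-box elements, among them those of the Per genes, and nocturnin is a rhythmic enzyme of the liver that removes a phosphate from NADP(H) and was long described as a deadenylase. In mouse liver the transcripts of Arntl and Npas2 peak near dawn, those of Nr1d1, Dbp and the Per genes later in the day or around dusk, and that of Ccrn4l early in the night.

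Promoter windows are shown because the members are tied to each other by these elements. RefSeq windows on GRCm38.p6, each running from 250 bases before to 50 bases after a start site, were matched for 9 of the 10 genes, 11 windows in all, and Per2 had none. They were searched on both strands for the letters CACGTG (E-box), CACGTT (an E-box variant), TAGGTCA (the REV-ERB and ROR element), TTATGTAA and TTACGTAA (D-box forms) and TGACGTCA (the cyclic AMP response element). No match overlapped another. The window of Per1 at chr11:69098699-69098998 (+ strand) held a CACGTG that began 166 bases before the start site. That of Cry1 at chr10:85185005-85185304 (- strand) held a CACGTG 60 bases before it and, 79 bases before it, a CACGTT that reads on the opposite strand. Per3 at chr4:151044616-151044915 (- strand) held TTATGTAA at 205 and at 158 bases before the start. One of the windows of Arntl, at chr7:113207261-113207560 (+ strand), held a TAGGTCA 30 bases after the start. The window of Ccrn4l, named Noct in RefSeq, at chr3:51224197-51224496 (+ strand), is shown as the gene whose groups stood apart, and none of these letters occurred in it. Capitals mark the matches.
Per1: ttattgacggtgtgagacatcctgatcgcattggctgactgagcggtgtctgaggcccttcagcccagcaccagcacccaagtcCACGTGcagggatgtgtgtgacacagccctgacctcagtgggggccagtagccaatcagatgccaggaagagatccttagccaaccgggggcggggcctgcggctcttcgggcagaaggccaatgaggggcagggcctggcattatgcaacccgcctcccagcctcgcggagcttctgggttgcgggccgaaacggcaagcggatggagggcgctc
Cry1: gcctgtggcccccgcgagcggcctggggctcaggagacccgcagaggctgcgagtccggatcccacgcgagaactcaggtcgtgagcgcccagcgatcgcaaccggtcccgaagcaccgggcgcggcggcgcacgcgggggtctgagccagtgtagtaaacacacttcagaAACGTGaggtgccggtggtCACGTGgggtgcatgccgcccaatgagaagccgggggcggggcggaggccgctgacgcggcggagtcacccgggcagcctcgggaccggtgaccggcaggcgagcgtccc
Per3: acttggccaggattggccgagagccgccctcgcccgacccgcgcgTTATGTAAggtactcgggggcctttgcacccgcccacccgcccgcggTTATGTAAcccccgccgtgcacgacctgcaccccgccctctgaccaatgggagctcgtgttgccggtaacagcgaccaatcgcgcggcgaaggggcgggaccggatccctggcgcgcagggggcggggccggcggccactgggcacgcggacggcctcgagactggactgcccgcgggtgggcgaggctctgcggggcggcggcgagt
Arntl: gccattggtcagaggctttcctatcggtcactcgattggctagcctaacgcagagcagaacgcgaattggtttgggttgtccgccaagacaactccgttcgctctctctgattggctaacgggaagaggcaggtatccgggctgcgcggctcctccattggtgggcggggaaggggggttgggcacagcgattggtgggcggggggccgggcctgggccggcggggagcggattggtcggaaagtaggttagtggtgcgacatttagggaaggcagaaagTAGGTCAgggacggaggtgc
Noct: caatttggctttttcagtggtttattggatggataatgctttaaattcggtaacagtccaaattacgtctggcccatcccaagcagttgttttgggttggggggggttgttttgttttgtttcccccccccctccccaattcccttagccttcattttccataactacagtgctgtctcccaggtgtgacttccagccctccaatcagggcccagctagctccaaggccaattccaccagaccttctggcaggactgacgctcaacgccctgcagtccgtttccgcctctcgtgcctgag

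Nr1d1 had a CACGTT, on the opposite strand, 28 bases before its start site, and the windows of Npas2, Nr1d2 and Dbp held none of the letters searched. Among 32851 promoter windows of the same length, 7.15% held CACGTG, 4.68% CACGTT, 2.61% TAGGTCA, 0.938% TTATGTAA, 0.119% TTACGTAA and 1.79% TGACGTCA. A match is a run of letters and not a measured binding site, and no match says nothing of elements elsewhere in the gene.

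The livers held 65384969 to 89350181 reads on listed genes. The deposited values are reads scaled by the size factor of each liver, called normalised read counts here. All 10 members passed the filter on low values, which asked for 1 or more in 3 or more livers and which 17297 genes passed. No pair of livers of a group agreed within sampling noise (chi-square over its degrees of freedom was 20.8 to 70.0), so each liver was 1 replicate. All 6 hepatocyte markers (Alb, Apoa1, Ttr, Cps1, Tat and Apob) were detected in every liver. Their summed level was 71213 to 78873 CPM (counts scaled to a fixed total of reads per liver) in control and 68717 to 79847 CPM in Blnc1 LKO livers. In whole liver, fewer cells of a type and less RNA per cell cannot be told apart.

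Per length of transcript, the members of the clock arms were present at very different levels, and in the same order in both groups. Dbp was the highest in control livers, at 4121 ± 174 normalised reads per kilobase (SD, n = 3). Nr1d1 (2248 ± 141) and Nr1d2 (2122 ± 103) came next, and their livers overlapped, at 2100 to 2380 against 2007 to 2207. Ccrn4l stood at 1389 ± 79.8, and the 3 Per genes followed close together, with Per3 at 662 ± 64.8, Per2 at 657 ± 43.2 and Per1 at 634 ± 0.532. The livers of these Per genes overlapped, so no order among them can be given. Cry1, a repressor that acts with the PER proteins, stood at 232 ± 44.2. The activators were lowest in every one of the 6 livers. In control livers Arntl had a mean of 46.7 (44.4 to 50.1) and Npas2 one of 5.21 ± 2.35 normalised reads per kilobase. In Blnc1 LKO livers the levels were 4130 ± 462 for Dbp, 2476 ± 608 for Nr1d1, 2075 ± 286 for Nr1d2, 980 ± 177 for Ccrn4l, 669 ± 94.0 for Per3, 618 ± 105 for Per2, 599 ± 89.7 for Per1, 197 ± 43.2 for Cry1, 48.5 ± 6.15 for Arntl and 4.97 ± 2.25 for Npas2. These lengths are those of the longest principal transcript of each gene. With the length of all annotated exons, Dbp was again highest and Arntl and Npas2 lowest, but Ccrn4l stood at 399 ± 22.9 in control livers, below Per2 at 654 ± 43.0, because its annotated exons cover 10658 bases against 3059 in the principal transcript.

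**Figure D1:**
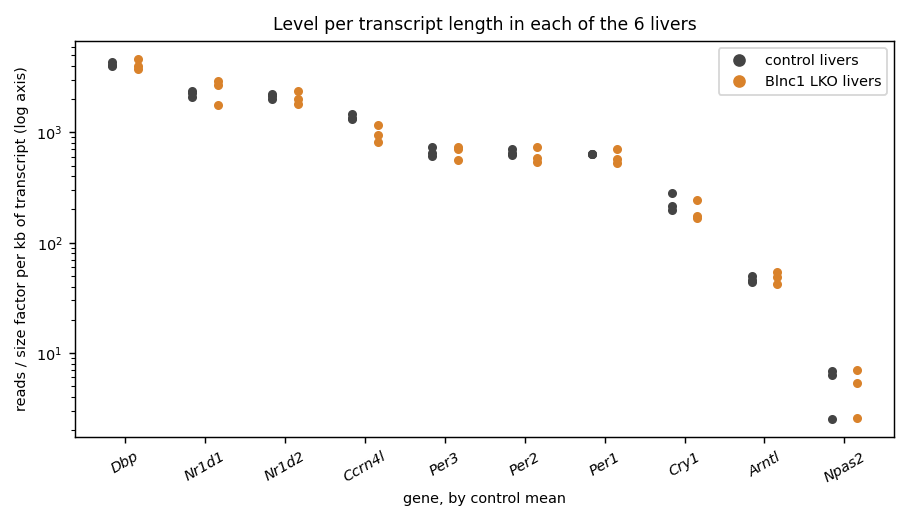
Normalised reads per kilobase of the longest principal transcript (log axis) of each gene, with 1 point per liver, control in grey and Blnc1 LKO in orange, genes ordered by the control mean. Dbp, Nr1d1 and Nr1d2 lie highest, and Arntl (42.1 to 54.4) and Npas2 (2.52 to 7.02) lie lowest in all 6 livers.

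The distance between the output or repressor genes and the activator gene Arntl overlapped between the groups. The level of Dbp was 94.2, 81.7 and 89.3 times that of Arntl, per kilobase, in the controls against 72.8, 95.1 and 89.7 times in the Blnc1 LKO group. Nr1d1 was 52.0, 45.2 and 47.3 times Arntl in the controls against 54.1, 55.1 and 42.5 times in the Blnc1 LKO group. The ratio of Per2 to Nr1d1, genes of the 2 repressor arms, was 0.261, 0.284 and 0.336 in control livers and ranged more widely, at 0.182, 0.217 and 0.411, in Blnc1 LKO livers.

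Each of the clock genes other than Ccrn4l had values that overlapped between the groups, and Ccrn4l was lower in every Blnc1 LKO liver. The log2 fold changes of the 9 clock genes, from limma on log2(value + 1), ran from -0.24 to 0.11. That of Ccrn4l was -0.52 (SE 0.12). Over the 10 genes, 7 had a lower and 3 a higher mean of log2(value + 1) in Blnc1 LKO livers, and all lists are counted in this way. Dbp was lower by this measure, though its plain means were 7571 in control and 7586 in Blnc1 LKO livers. The median log2 fold change was -0.05, beside -0.001 over all genes tested, of which 50.4% were lower. At an adjusted p below 0.05, limma called 0 of the 10, 1 at an unadjusted p below 0.05, and edgeR 0 and 1. Over all genes limma called 0.00578% adjusted and 5.68% unadjusted. DESeq2 called 1 of the 10, Ccrn4l, beside 0.538% of the genes it tested. The groups did not overlap for 1 of the 10, beside 10.6% of all genes, and 5.28% of all genes were lower without overlap. Since the members were chosen with this contrast known, nothing is read from these counts. Single livers decided the size of the difference for 9 of the 10 genes and its sign for 5, with Dbp, at -0.00 with all livers, not counted for sign. Over the fits without 1 of the livers, its value ran from -0.04 to 0.14 for Arntl, -0.49 to 0.34 for Npas2 and -0.06 to 0.13 for Per3. It ran from -0.03 to 0.33 for Nr1d1 and -0.14 to 0.05 for Nr1d2, and these are the 5 counted as changing sign. The lowest value was -0.21 for Per1, without Blnc1 LKO replicate 2, and -0.23 for Per2, without Blnc1 LKO replicate 3, and both were near 0 without Blnc1 LKO replicate 1. Dbp ran from -0.09 to 0.06, on both sides of 0. Ccrn4l alone moved by less than 1.5 times. For 1 gene, the smallest p that an exact permutation of 3 against 3 livers allows is 0.1.

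**Figure D2:**
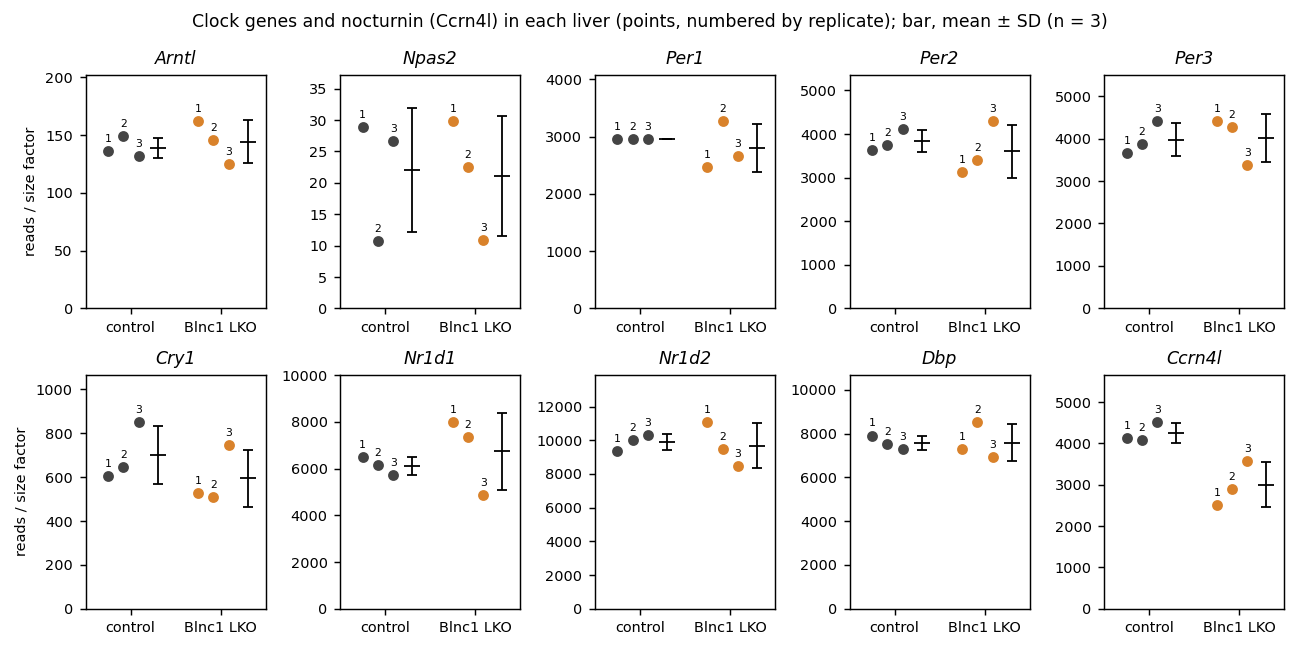
Normalised read counts (reads divided by size factor) of the 10 genes, with 1 point per liver numbered by replicate, control in grey and Blnc1 LKO in orange, and a bar for the mean ± SD (n = 3). The livers of the groups overlap for every gene except Ccrn4l, where control livers sit between 4078 and 4528 and Blnc1 LKO livers between 2516 and 3584.

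Among the activators, Arntl (chr7:113207465-113314126, + strand, GRCm38 as are all gene positions here, from GENCODE M21) encodes BMAL1, the subunit the loop cannot run without. Its normalised read counts were 136, 149 and 132 in the controls against 162, 146 and 125 in the Blnc1 LKO group. Both the highest and the lowest liver were Blnc1 LKO, and the log2 fold change was 0.05 (SE 0.15, 95% interval -0.29 to 0.38). Npas2 (chr1:39193731-39363236, + strand), which encodes the partner that can stand in for CLOCK, had 28.9, 10.7 and 26.6 in the controls against 29.8, 22.5 and 10.9 in the Blnc1 LKO group. These values rest on 10 to 31 reads per liver. The interval of its difference, -1.14 to 1.03 on the log2 scale, was the widest of the 10, and its within-group SD of 0.732 the largest. The parts of low depth and of spread between livers in that width were not separated.

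The Per genes encode the proteins that carry the negative limb. Per1 (chr11:69095217-69109960, + strand), which also answers quickly to hormones and cyclic AMP, had 2958, 2957 and 2962 in the controls against 2462, 3268 and 2665 in the Blnc1 LKO group. The control livers were nearly identical, with a coefficient of variation of 0.0839%, and the Blnc1 LKO livers lay on either side of them, with one of 15.0%. The control values rest on 2776 to 3173 reads per liver. A spread this small is below the counting error of such reads, so it is not read as a property of the gene. The log2 fold change was -0.09 (SE 0.096, interval -0.31 to 0.13). Per2 (chr1:91415982-91459324, - strand), which like Per1 takes part in resetting the clock, had 3628, 3754 and 4114 in the controls against 3119, 3409 and 4291 in the Blnc1 LKO group. The difference was -0.10 (SE 0.11, interval -0.35 to 0.15), with Blnc1 LKO replicate 3 above all other livers and the remaining Blnc1 LKO livers below all controls. Per3 (chr4:151003652-151044665, - strand), a member of the family that the core loop can do without, had 3650, 3866 and 4405 in the controls against 4404, 4268 and 3367 in the Blnc1 LKO group. Here Blnc1 LKO replicate 3 was the lowest of the 6 livers, the reverse of its place for Per2, and the difference was 0.01 (SE 0.11, interval -0.24 to 0.26).

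Cry1 (chr10:85131700-85185064, - strand) encodes a strong repressor of the BMAL1 pair. It had 603, 646 and 853 normalised reads in the controls against 528, 510 and 745 in the Blnc1 LKO group. The difference of -0.24 (SE 0.17, interval -0.64 to 0.15) was the largest after that of Ccrn4l, but it was -0.09 without control replicate 3, the highest liver, and -0.42 without Blnc1 LKO replicate 3. Blnc1 LKO replicate 3 lay above control replicates 1 and 2, so the groups overlapped.

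The REV-ERB genes encode heme-binding nuclear receptors that repress Arntl, and Nr1d1 had the largest coefficient of variation in Blnc1 LKO livers after Npas2. Nr1d1 (chr11:98767932-98775333, - strand) had 6475, 6163 and 5713 in the controls against 8009, 7331 and 4868 in the Blnc1 LKO group. Blnc1 LKO replicates 1 and 2 lay above and replicate 3 below all controls, and the difference was 0.11 (SE 0.16, interval -0.26 to 0.48). Nr1d2 (chr14:18204054-18239127, - strand) had 9361, 10028 and 10292 in the controls against 11109, 9454 and 8470 in the Blnc1 LKO group, with a difference of -0.04 (SE 0.094, interval -0.26 to 0.18). The same livers were highest and lowest for both, Blnc1 LKO replicates 1 and 3. Exons of Nr1d1 overlap those of Thra, on the opposite strand, over 263 bases or 8.55% of its exonic length, and the library kit does not mark strand, so reads there cannot be told apart.

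Dbp (chr7:45705088-45710203, + strand) had 7913, 7523 and 7278 in the controls against 7276, 8547 and 6936 in the Blnc1 LKO group. Its means, 7571 ± 320 and 7586 ± 849, were the closest of the 10, and the 95% interval of the difference was the narrowest, at -0.19 to 0.18 on the log2 scale. It is among the genes of largest daily amplitude in mouse liver. Its exons share 539 bases, 18.0% of their length, with Sphk2 on the opposite strand, so some of its reads could belong to that gene.

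**Figure D3:**
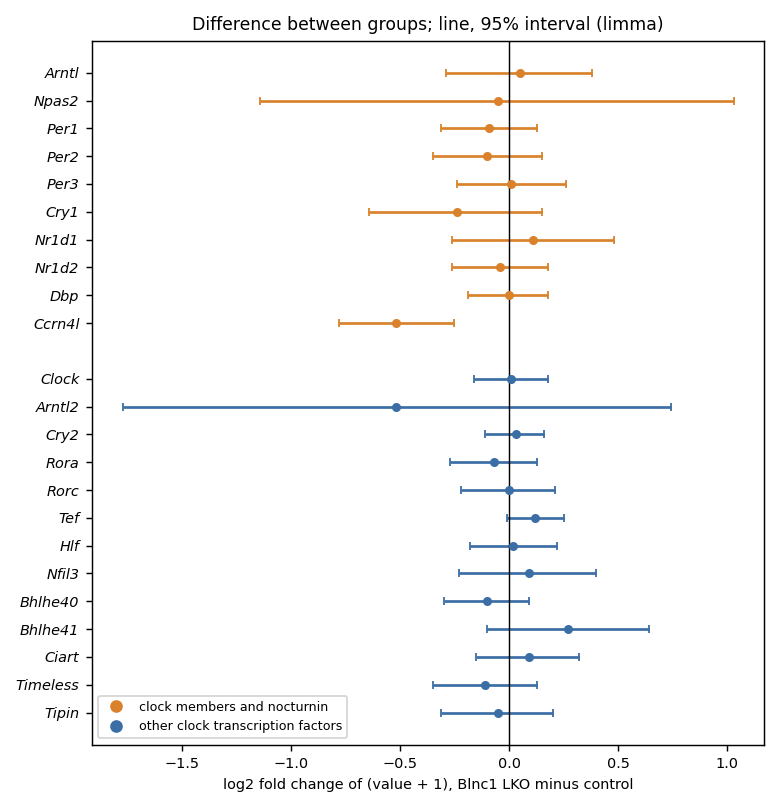
Log2 fold change of (value + 1), Blnc1 LKO minus control, for the 10 genes (orange) and 13 further clock transcription factors (blue), with the 95% interval from limma as a line. Ccrn4l lies at -0.52, and the other 9 members lie between -0.24 and 0.11.

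Ccrn4l (chr3:51224447-51251644, + strand, Noct in GENCODE) had 4139, 4078 and 4528 normalised reads in the controls against 2516, 2898 and 3584 in the Blnc1 LKO group. Every Blnc1 LKO liver was below every control liver. The means were 4248 ± 244 and 2999 ± 541 (SD, n = 3), a ratio of 0.706 and a change of -29.4%. The log2 fold change was -0.52 (95% interval -0.78 to -0.25) by limma and -0.50 by DESeq2. With each liver left out in turn it ran from -0.65 to -0.40. Beside these values, the summed markers of Kupffer cells were 518 to 606 CPM in control and 604 to 699 CPM in Blnc1 LKO livers, with 6 of 6 markers higher. Stellate cell markers summed to 733 to 878 CPM against 572 to 761 CPM, with 4 of 6 lower, and endothelial markers to 332 to 355 CPM against 309 to 336 CPM, also with 4 of 6 lower. Cholangiocyte markers summed to 807 to 959 CPM against 635 to 1003 CPM (4 of 6 lower), and lymphocyte markers to 13.8 to 17.6 CPM against 11.9 to 18.9 CPM (5 of 6 lower). No marker was at 0 in every liver and none passed the adjusted threshold in limma. The part of these cells in the value of Ccrn4l was not tested.

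The ratio of Ccrn4l to Per2, a pair chosen after the values were seen, was nearly constant within each group. The level of Ccrn4l per kilobase was 2.18, 2.07 and 2.10 times that of Per2 in the controls against 1.54, 1.62 and 1.59 times in the Blnc1 LKO group. The mean ratio was 2.12 (SD 0.0539) in the controls and 1.58 (SD 0.0422) in the Blnc1 LKO group. Since the pair was picked for its values, nothing is read from the gap between the groups. In both genes Blnc1 LKO replicate 1 was the lowest of its group and replicate 3 the highest.

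The livers of the Blnc1 LKO group were less alike than the control livers for most clock genes. This comparison does not use the difference between the group means. It does set the groups against each other in genes picked with these values known, so it is a description. The SD of log2(value + 1) over 3 livers was larger in Blnc1 LKO than in control livers for 9 of the 10 genes, the exception being Npas2, and for 67.0% of all genes tested. The median SD of the members was 0.091 in control livers, beside 0.094 over all genes, and 0.225 in Blnc1 LKO livers, beside 0.147 over all genes. Without Blnc1 LKO replicate 3 the Blnc1 LKO median of the members was 0.126, beside 0.140. The coefficient of variation in control and Blnc1 LKO livers was 6.26% and 24.5% for Nr1d1, 5.74% and 18.1% for Ccrn4l, 6.58% and 16.9% for Per2 and 4.23% and 11.2% for Dbp. Cry1 was variable in both groups (19.1% and 22.0%), as was Npas2 (45.1% and 45.3%). Over both groups, the within-group SD placed Dbp at the 45.2 percentile of all genes, Arntl at 53.4, Nr1d2 at 54.1, Per1 at 54.4, Per3 at 60.6, Per2 at 60.9, Ccrn4l at 62.7, Nr1d1 at 73.1, Cry1 at 73.6 and Npas2 at 92.4.

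**Figure D4:**
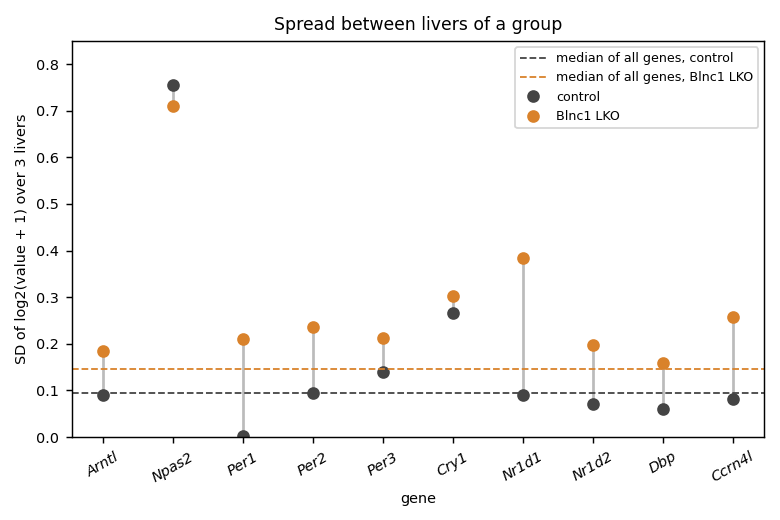
SD of log2(value + 1) over the 3 livers of each group, control in grey and Blnc1 LKO in orange, with dashed lines at the medians of all genes tested (0.094 and 0.147). The Blnc1 LKO point is above the control point for every gene except Npas2.

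Blnc1 LKO replicates 1 and 3 lay on opposite sides of the control mean for most members. They were also the livers with the fewest and the most reads, at 65384969 and 89350181, and the part of depth in this split was not tested. Relative to the control mean, on the log2 scale, replicate 1 was at 0.22 for Arntl, 0.53 for Npas2, 0.39 for Nr1d1, 0.17 for Nr1d2 and 0.15 for Per3, and at -0.29 for Per2 and -0.39 for Cry1. Replicate 3 had the opposite sign for each of these 7 genes, with -0.15, -0.84, -0.33, -0.22 and -0.23 for the first 5, and 0.17 and 0.11 for Per2 and Cry1. Replicate 1 was the highest of the 6 livers for 4 genes and the lowest for 3, and replicate 3 was the lowest for 5 (Arntl, Per3, Nr1d1, Nr1d2 and Dbp) and the highest for 1 (Per2). Per1, Dbp and Ccrn4l did not follow this split, with replicates 1 and 3 both below the control mean. These livers were at -0.27 and -0.15 for Per1 and at -0.06 and -0.13 for Dbp. Ccrn4l was at -0.75, -0.55 and -0.24 in Blnc1 LKO replicates 1 to 3. That is the same order of livers within the group as for Per2. Among the control livers, replicate 3 was the highest of all 6 for Per3, Cry1 and Ccrn4l, and replicate 1 was neither the highest nor the lowest for any member. Blnc1 LKO replicate 3 also stood apart in neutrophil markers, of which 5 of 6 were listed. They summed to 74.0 CPM in that liver, 6.33 and 15.8 CPM in the other Blnc1 LKO livers and 5.76 to 12.3 CPM in control livers, and the 5 were higher in the Blnc1 LKO mean. Their part in the spread of the clock genes was not tested.

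**Figure D5:**
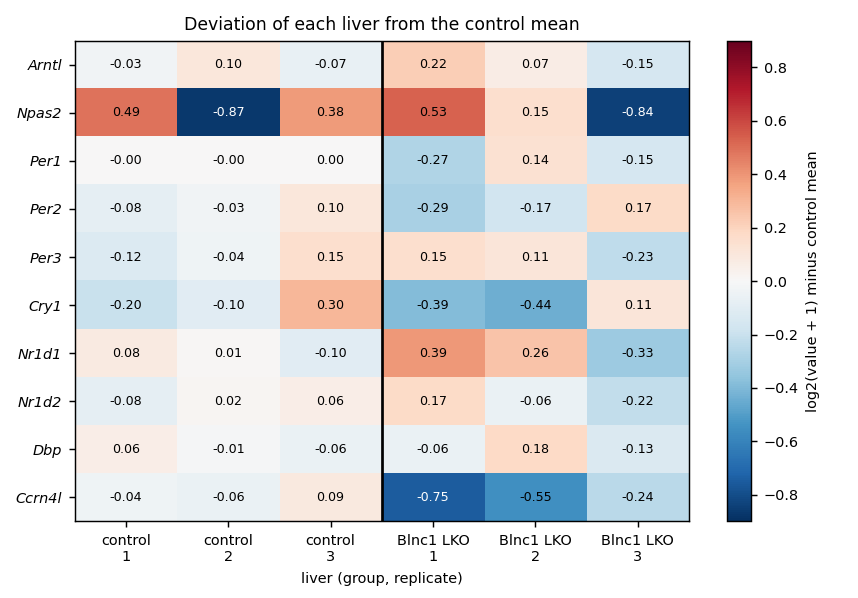
Deviation of log2(value + 1) in each liver (columns) from the control mean of the gene (rows), red above and blue below, with the value printed in each field. Blnc1 LKO replicates 1 and 3 differ in sign for Arntl, Npas2, Per2, Per3, Cry1, Nr1d1 and Nr1d2, and Ccrn4l is below the control mean in all 3 Blnc1 LKO livers.

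Across the 6 livers, the members did not move as 1 block. Pearson's r of log2(value + 1) to Arntl, given as a description over 6 livers that fall into 2 groups and differ in depth, was 0.885 for Nr1d1, 0.771 for Nr1d2 and 0.599 for Per3, and -0.901 for Per2, -0.740 for Cry1 and -0.650 for Ccrn4l. Of 12862 genes ranked by r to Arntl, Nr1d1 was at place 108 and Per2 at place 12744. Outside the members, Rabggtb, Zfp763 and Apom were most like Arntl (r = 0.991 each). To Dbp, the nearest member was Per1 (r = 0.771, place 514), and the genes most like it were Shc1 (0.988), A230056P14Rik and Kri1 (0.984 each). Ccrn4l was nearest to Cry1 (0.772, place 687) and Per2 (0.753, place 778) among the members, and to Cxcr4 (0.983), Spice1 (0.981) and Frmd4b (0.978) among all genes. Cxcr4, Spice1 and Frmd4b were also lower in Blnc1 LKO livers without overlap, so their r to Ccrn4l includes the difference between the groups. The genes most like each member are the top of 12862, and their likeness was not tested.

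The other parts of the clock machinery and its inputs and outputs were described by lists of genes. For every list that follows limma and edgeR called 0 genes at an adjusted p below 0.05, and the number at an unadjusted p below 0.05 is that of limma. Of 14 other clock transcription factors, 13 were tested, 7 were higher and 6 lower, none had an unadjusted p below 0.05 and DESeq2 called 0. Their median log2 fold change was 0.01. Tef, a relative of Dbp that binds the same D-boxes, had 15248 ± 570 in the controls against 16555 ± 605 in the Blnc1 LKO group without overlap (log2 fold change 0.12, SE 0.056, adjusted p = 0.891, limma). Bhlhe41, which encodes an E-box repressor, differed by 0.27 (SE 0.16, adjusted p = 0.942) and its relative Bhlhe40 by -0.10 (SE 0.085, adjusted p = 0.971, limma), and without control replicate 3 they were at 0.10 and -0.20. Of 16 genes that modify or degrade clock proteins, 6 were higher and 10 lower, with a median of -0.02, none below an unadjusted 0.05 and 0 by DESeq2. Btrc, which marks PER proteins for degradation, differed by 0.11 (SE 0.069), or by 0.07 without control replicate 3, and the deacetylase Sirt1 by 0.11 (SE 0.092), or by 0.02 without Blnc1 LKO replicate 1.

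Among 20 liver genes known for rhythmic expression, 9 were higher and 11 lower (median -0.02), 3 of the higher and 1 of the lower had an unadjusted p below 0.05, and DESeq2 called 0. Elovl3, a fatty acid elongase, had 1544, 2047 and 1455 in the controls against 3901, 2026 and 3757 in the Blnc1 LKO group (log2 fold change 0.90, SE 0.24, adjusted p = 0.648, limma). Blnc1 LKO replicate 2 was within the control range. Avpr1a, a vasopressin receptor, differed by 0.53 (SE 0.19) without overlap, or by 0.31 without Blnc1 LKO replicate 1, and Tfrc, the transferrin receptor, by -0.43 (SE 0.14) with adjusted p-values of 0.824 and 0.809 in limma.

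In the lists of genes for inputs to the clock, most genes had lower means in the Blnc1 LKO group, which is a count and not a test of the lists. Over all genes, 50.4% were lower and 5.68% had an unadjusted p below 0.05 in limma. The lists share genes, all lower: Pdk4 and Tat are in those of fasting and glucocorticoids, and Dusp1 in those of glucocorticoids and early response. All 10 genes induced by feeding had lower means with Blnc1 LKO (median -0.28), and 3 had an unadjusted p below 0.05. Several of them are lipogenic genes that the study itself assayed, so the list is not independent evidence of its direction. Srebf1, the master regulator of lipogenesis, had 48472 ± 4531 in the controls against 36301 ± 3776 in the Blnc1 LKO group (log2 fold change -0.42, SE 0.097, adjusted p = 0.548, limma, and 0.0111, DESeq2). It was the 1 gene of the list that DESeq2 called. Acly (ATP citrate lyase) differed by -0.32 (adjusted p = 0.840, limma). Of 11 genes induced by fasting, 3 were higher and 8 lower (median -0.13), with Fgf21 at -0.28, Pdk4 at -0.26 and Irs2 at 0.21, and none had an unadjusted p below 0.05. Fgf21 was at -0.18 without Blnc1 LKO replicate 1, and Pdk4 at -0.40 and Irs2 at 0.10 without control replicate 1. Of 10 glucocorticoid-induced genes 2 were higher and 8 lower (median -0.18), with 1 in each direction below an unadjusted 0.05. Klf9, which is also in the rhythmic list, differed by 0.24 (SE 0.091, adjusted p = 0.840), Mt1 (metallothionein) by -0.49 and Sgk1 by -0.16. Klf9 was at 0.13 and Sgk1 at -0.09 without Blnc1 LKO replicate 1, and Mt1 at -0.23 without Blnc1 LKO replicate 3. Of 13 early response genes 1 was higher and 12 lower (median -0.14), 3 of these below an unadjusted 0.05. Jun had 4306, 4667 and 4511 in the controls against 2285, 3333 and 3995 in the Blnc1 LKO group (log2 fold change -0.52, SE 0.17, adjusted p = 0.791, limma), Nr4a2 differed by -0.48 and Egr1 by -0.44. Without Blnc1 LKO replicate 1, Jun was at -0.30 and Egr1 at -0.25. Of 10 temperature-responsive genes 2 were higher and 8 lower (median -0.15), with Hspa8 at -0.17, Dnajb1 at -0.16 and Hsp90aa1 at -0.15, and none had an unadjusted p below 0.05. Hspa8 was at -0.09 without Blnc1 LKO replicate 1, and Dnajb1 at -0.04 and Hsp90aa1 at -0.07 without control replicate 2. DESeq2 called 0 genes in each of these lists other than that of feeding.

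Lists related to what nocturnin does were near balance. Of 10 deadenylases and relatives of nocturnin, 5 were higher and 5 lower (median 0.01), none below an unadjusted 0.05. Cnot8, a catalytic subunit of the CCR4-NOT deadenylase, had 3401 ± 75.2 in the controls against 3653 ± 140 in the Blnc1 LKO group without overlap (log2 fold change 0.10, adjusted p = 0.913, limma), Angel1 differed by 0.11 (0.04 without control replicate 3) and Cnot6 by -0.08 (-0.02 without Blnc1 LKO replicate 2). Of 13 enzymes of NAD and NADPH metabolism, 6 were higher and 7 lower (median -0.01), with 2 of the lower below an unadjusted 0.05. Nnt, the mitochondrial transhydrogenase that makes NADPH, had 7180 ± 462 in the controls against 6265 ± 137 in the Blnc1 LKO group without overlap (log2 fold change -0.19, SE 0.060, adjusted p = 0.767, limma). Nnmt, which uses up nicotinamide, differed by -0.33 (adjusted p = 0.870, limma), or by -0.19 without Blnc1 LKO replicate 2, and Nampt, whose expression is driven by the clock, by -0.11 (adjusted p = 0.971, limma), or by -0.02 without control replicate 3. DESeq2 called 0 genes in both lists.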

How the data were processed

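PolyA-selected RNA from the livers of 6 mice, 3 control and 3 Blnc1 LKO, was sequenced. Alignment by the authors used STAR and mm10, counting per gene used HTSeq, their comparison used DESeq2, and the labels also name FastQC. Versions and annotation are not given in the sources used here. The deposited signal values are reads of each gene scaled by a size factor per liver, without correction for gene length. Columns named WT and KO with a number were assigned to control and Blnc1 LKO replicates by that number. The values are not raw counts, so limma (3.58.1, R 4.3.3; lmFit, eBayes with a trend) was fitted to log2(value + 1) for the 17297 genes that reached 1 in 3 or more livers, without covariates, with Benjamini-Hochberg adjustment over all of them. On this scale the change of low genes is understated. Dividing by the value of 1 read gave whole reads for 100% of values (tolerance 0.01 reads), and on these reads edgeR (4.0.16, quasi-likelihood, TMM) called 2 genes and DESeq2 (1.42.0) 84. Alternatives were a pseudocount of 0.1, no filter, at least 10 reads in every liver, library size scaling, a block for the replicate number, leaving out each liver, and an adjusted p below 0.1. After the data were seen, all annotated exons as transcript length and the spread without Blnc1 LKO replicate 3 were added. The fits were tested on simulated data.

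The members and lists were chosen with earlier results of these data known. Named genes are the 10 members, and from each further list every gene past the adjusted threshold, otherwise the 3 of smallest unadjusted p with a mean of at least 1 CPM. For Arntl, Dbp and Ccrn4l the 3 genes of highest r were added. Some genes that the rule names are not reported here. Cell types were described by summed CPM of markers for hepatocytes, Kupffer, stellate, endothelial and cholangiocyte cells, lymphocytes and neutrophils. P-values set the difference between the group means against the spread between livers of a group, which each tool moderates over genes. The table holds 23 symbols turned into dates, which were left as they are. Depths cover counting error only. Gene positions and lengths came from GENCODE M21, and promoter windows from RefSeq. Analyses used Python 3.11.15, numpy 2.4.6, pandas 2.3.3 and matplotlib 3.10.9.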

Additional observations from a re-analysis of the deposited data

How the results depend on the processing

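Among the 10 members, the log2 fold change took the opposite sign in 10 of 60 values with a liver left out (Arntl, Npas2, Per3, Nr1d1 and Nr1d2) and in 0 of 70 values under the other alternatives. Dbp, at -0.00 with all livers and -0.09 to 0.06 with a liver left out, was not counted for sign. The log2 fold change moved by over 1.5 times in 9 of the 10 with a liver left out, Ccrn4l being the exception, and in 1 (Npas2) under the others. The number of members called was 0 with limma and edgeR and 1 with DESeq2 (Ccrn4l), and the number of feeding-induced genes called was 0 with limma and 1 with DESeq2 (Srebf1, adjusted p = 0.0111). Over all genes limma called 1, against 2 with no filter, 2 with edgeR, 84 with DESeq2, 2 at an adjusted p below 0.1 and 0 to 13 with a liver left out, the most without Blnc1 LKO replicate 2. The median within-group SD of the members, 0.180, ranged from 0.109 to 0.206 with a liver left out, the lowest without Blnc1 LKO replicate 3. The median log2 fold change of the members ranged from -0.08 to 0.06 in the same way, and was -0.06 with each other scaling. Levels per kilobase depend on the length used, with control means over all annotated exons of 18.5 for Arntl, 526 for Per1, 414 for Per3, 1988 for Nr1d1, 1829 for Nr1d2, 2530 for Dbp and 399 for Ccrn4l. The replicate number as a block left 0 genes called. Over all genes, livers that share a number did not deviate together (correlations of -0.06, -0.02 and -0.11). With 3 livers per group this cannot settle whether the numbers pair the mice. With the block, the SE went from 0.17 to 0.090 for Cry1 and from 0.12 to 0.083 for Ccrn4l, and rose slightly for Arntl, Per3 and Nr1d2. Of 39 genes named outside the members, 27 moved by over 1.5 times with a liver left out and 5 changed sign, all of these among the genes most like Arntl or Dbp, and none did either under the other alternatives. Shc1, at -0.00 with all livers and -0.04 to 0.02 with a liver left out, was not counted as changing sign. With 3 livers per group, Npas2 at 10 to 31 reads is the member whose depth limits the comparison most, and the cause of the differences between tools was not tested.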
